A study of Mus musculus with 12 samples.

Results

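The genes described are those that carry a calcium signal out of the endoplasmic reticulum and on to the NFAT transcription factors: the inositol trisphosphate (IP3) receptors Itpr1, Itpr2 and Itpr3, the store sensor Stim1, the entry channel Orai1, the calcineurin subunit Ppp3ca, the calcineurin regulator Rcan1, and the factors Nfatc1, Nfatc2 and Nfatc3. They were taken by name as the array probe sets annotated to 1 of these genes alone, and 9 of the 10 had such probe sets, out of 18195 genes with one. Itpr1 had none and was not analysed here. The 9 genes had 29 probe sets, of which 23 passed the filter on dim signal, and each of the 9 kept at least 1 probe set above it. On the brightest probe set of each gene, Nfatc1 was above the scrambled control in both Plcg1 hairpin lines, and Itpr2 was higher in 1 hairpin line than in the other.

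Phospholipase C gamma enzymes cut a membrane lipid into diacylglycerol and IP3, and IP3 opens IP3 receptors on the endoplasmic reticulum so that stored calcium enters the cytosol. STIM1 senses the emptied store and opens ORAI1 in the plasma membrane, and the calcium that enters binds calmodulin, which switches on the phosphatase calcineurin. Calcineurin removes phosphate groups from NFAT factors, which then move into the nucleus, and RCAN1 binds and restrains calcineurin. In erythroid cells the erythropoietin receptor is one of the receptors that engage phospholipase C gamma.

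The cells were I/11, a mouse line of pro-erythroblasts kept as expanding progenitors in serum-free medium with human recombinant erythropoietin, stem cell factor and dexamethasone. All 12 arrays came from lines stably infected with a lentiviral pLKO vector that carries puromycin resistance: 4 arrays of the Plcg1 hairpin line sh14, 4 of the Plcg1 hairpin line sh133 and 4 of the line with the scrambled hairpin (scr), 1 array of each line at each of the 4 labelled times, 1, 6, 12 and 22 h. The labels do not say what the hours are counted from, nor whether the arrays of a line came from separate cultures. With 1 array of each line at each time, the p-values rest on the spread left by the model's terms for line, time and title date. That spread holds any difference between lines in their time course as well as noise. Each hairpin is represented by 1 infected line, so what a hairpin does to its target and what else sets a line apart cannot be told apart.

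Values are log2 signals. Array medians lay between 1.84 and 1.92, and pairs of arrays correlated at 0.983 to 0.997 over all probe sets. The array titles carry 2 dates, whose meaning the labels do not give: 1 set of 6 arrays holds every sh14 array and sh133 at 6 and 12 h, and the other holds every scr array and sh133 at 1 and 22 h. The sh14 and scr arrays therefore share no title date, and each model below has the date set as a term that only the sh133 arrays tie together. Probe sets of the erythroid genes Klf1 and Gata1 averaged 9.39 and 8.23, while the 1 usable probe set of the alpha globin gene Hba-a1 was dim at 0.97. Plcg1 itself read 4.16, 3.86, 4.27 and 4.30 in sh14 and 4.53, 4.35, 4.37 and 4.39 in sh133 at 1, 6, 12 and 22 h, against 4.74, 4.45, 4.61 and 4.31 in scr. It was below scr at the matched time in 4 of 4 sh14 arrays and 3 of 4 sh133 arrays. Each sh14 array was also below each scr array, though narrowly, with 4.30 against 4.31 at 22 h. Of all genes tested, 17.7% did not overlap between sh14 and scr. The sh133 range of Plcg1 overlapped that of scr. The difference of the hairpin lines from scr, -0.24 on the log2 scale, did not pass limma's test (adjusted p = 0.592). Its relative Plcg2, the other phospholipase C gamma, was higher in the hairpin lines by 1.10 ± 0.13 (SE; limma adjusted p = 0.00302).

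**Figure D1:**
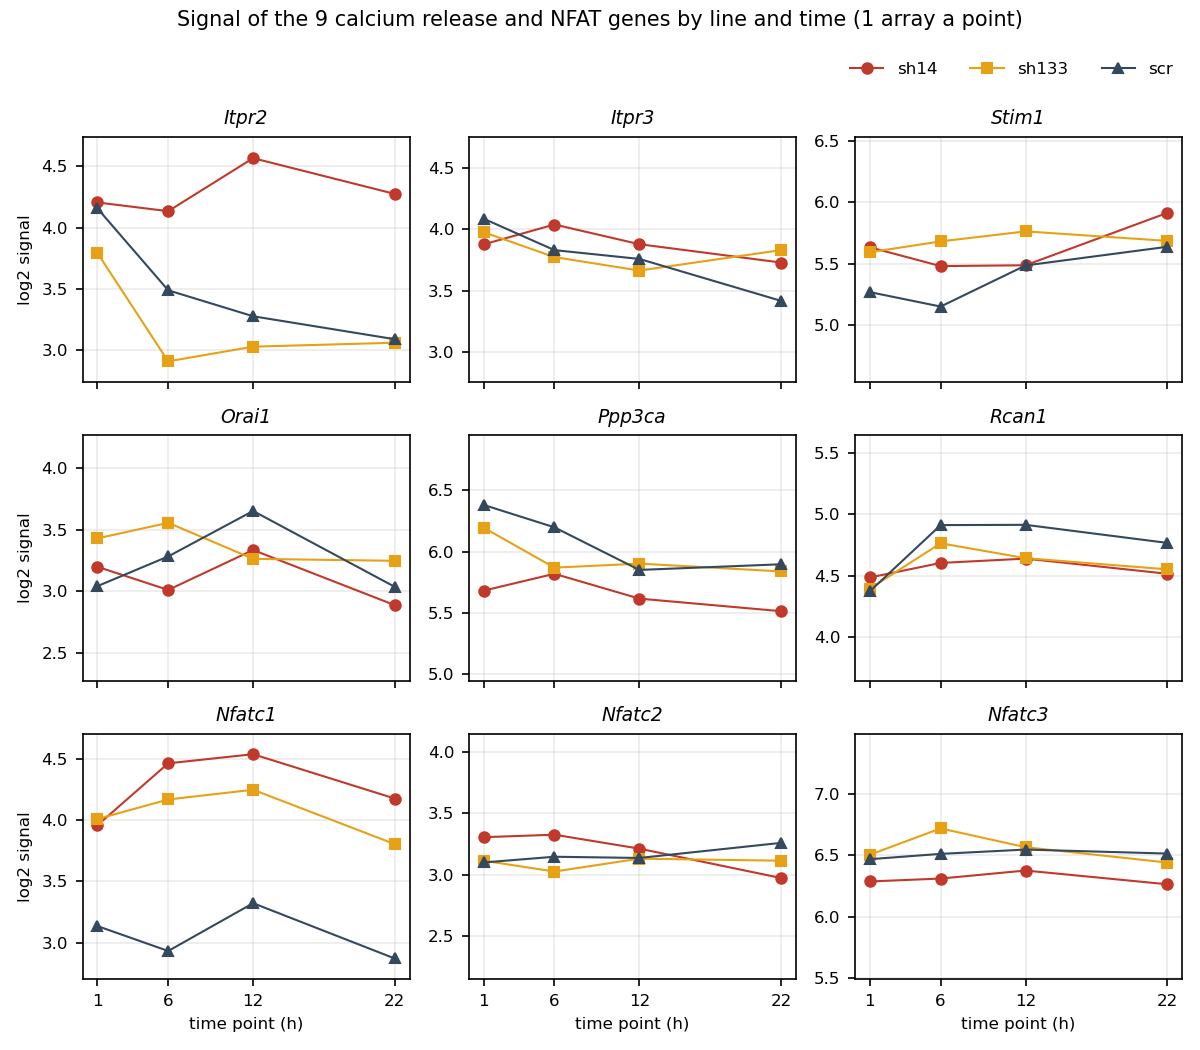
Log2 signal (vertical axes, each panel on its own range) of the probe set that stands for each of the 9 genes against time in hours (horizontal axes), with 1 array a point and a line for each of sh14, sh133 and scr. The sh14 and sh133 points of Nfatc1 all lie above its 4 scr points, and those of Itpr2 in sh14 all lie above those in sh133.

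Of the 9 genes, 1 was called higher and 0 were called lower in the 2 hairpin lines jointly than in scr, at a Benjamini-Hochberg adjusted p under 0.05 in limma, where 2.18% of the 12673 genes tested were called, 1.14% higher and 1.04% lower. The same count, 1 higher and 0 lower, was obtained for sh14 against scr, where 3.06% of all genes were called, 1.5% higher and 1.56% lower. It was also obtained for sh133 against scr (4.91% of all genes, 2.45% in each direction) and for sh14 against sh133 (14.6%, with 7.54% higher and 7.11% lower). The gene was Nfatc1 in the first 3 of these and Itpr2 in the last. The median log2 difference between the hairpin lines and scr was 0.05 over the 9 genes and 0.01 over all genes tested. Without overlap between the groups of arrays, 1 gene was higher in the 8 hairpin arrays than in the 4 scr arrays (3.8% of all genes did not overlap), 1 was higher and 2 lower in sh14 than in scr (17.7%), 1 was higher in sh133 than in scr (11.4%), and 1 was higher and 2 lower in sh14 than in sh133 (19.9%).

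Itpr2 encodes an IP3 receptor that is sensitive to low IP3. Its brightest probe set, which stands for the gene in all tests, read 4.20, 4.13, 4.57 and 4.27 in sh14 at 1, 6, 12 and 22 h, against 3.79, 2.91, 3.03 and 3.06 in sh133 and 4.16, 3.49, 3.28 and 3.09 in scr. Each sh14 array was above each sh133 array, whereas sh14 overlapped scr through the scr array at 1 h, and sh133 overlapped scr. The group means were 4.29 ± 0.19 in sh14, 3.20 ± 0.40 in sh133 and 3.50 ± 0.46 in scr (SD, n = 4 each). The sh14 line was higher than sh133 by 1.29 ± 0.23 on the log2 scale, a fold of 2.45 (SE; limma adjusted p = 0.0048).

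At matched times the sh14 minus sh133 differences of Itpr2 were 0.41, 1.22, 1.54 and 1.21, so the 1 h arrays differed least. The 6 and 12 h arrays of both lines share a title date, and a fit within that date set gave 1.38 (limma adjusted p = 0.00307). Only the 6 and 12 h differences bear on that fit. It leaves little residual spread, so limma's estimate draws on that of the other genes. The test lost its call without the sh133 array at 6 h (adjusted p = 0.0745) or at 12 h (adjusted p = 0.0731). Against scr, sh14 differed by 1.18 ± 0.34 (SE; 95% interval 0.42 to 1.95; limma adjusted p = 0.104), and sh133 by -0.11 (interval -0.61 to 0.40; adjusted p = 0.873), and neither passed. Without the date term the sh14 difference from scr was 0.79 and passed (adjusted p = 0.00701), and it also passed without the 1 h array of sh14 (1.18, adjusted p = 0.0204) or of scr (1.55, adjusted p = 0.0289).

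The other probe sets of Itpr2 moved less. The second brightest differed between sh14 and sh133 by 0.75 (limma adjusted p = 0.0790 over all probe sets tested, of which 11.8% were called), and the 3 dimmer ones past the filter by 0.12, 0.17 and 0.19. The sixth, at a mean signal of 1.18, was below the filter. Averaged over its probe sets, Itpr2 was higher in sh14 than in sh133 by 0.44 (limma adjusted p = 0.0180).

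Among the 20 measured genes next to Itpr2 on chromosome 6, 10 on either side in the gene order of the RefSeq GRCm38.p6 annotation, 9 were higher and 0 lower in sh14 than in sh133, with a median log2 difference of 0.44 and a range of -0.14 to 1.50. Over chromosome 6 as a whole 125 genes were higher and 24 lower among 626 tested. Over all genes tested, 7.54% were higher and 7.11% lower in that comparison. Against scr, 1 of the same 20 neighbours was higher in sh14 (median difference 0.47) and 0 in sh133 (median -0.03). Of all genes, 1.5% were higher than scr in sh14 and 2.45% in sh133. All called neighbours had the sign of Itpr2 in the comparison of the hairpin lines. The part of the chromosome in the Itpr2 result was not tested.

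Markers of mast cells and basophils also differed between the hairpin lines. Of the 8 listed, 6 were tested, and 4 were higher and 0 lower in sh14 than in sh133, where 7.54% of all genes were higher. The 4 were Mitf, Cpa3, Fcer1a and Ms4a2, and Mitf lies on chromosome 6, as Itpr2 does. Fcer1a, the alpha chain of the IgE receptor, had 4.13 ± 0.45 in sh14, 1.08 ± 0.27 in sh133 and 1.20 ± 0.26 in scr (SD, n = 4 each). The log2 of the summed signal of all 8 ranged over 6.97 to 8.58 in sh14, 6.01 to 8.96 in sh133 and 6.51 to 9.53 in scr, so the sums overlapped, with Hdc, the histamine-forming enzyme, at 5.10 to 9.47 the brightest. The mast cell protease genes Mcpt4 and Mcpt8 were dim, at 1.41 and 0.94. In the erythroid list 2 of 6 tested genes were lower in sh14 than in sh133, where 7.11% of all genes were lower. They were Alas2, the first enzyme of haem synthesis, by 2.49 and Slc4a1, the band 3 anion exchanger, by 1.55 on the log2 scale. The part of these differences in the Itpr2 result was not tested.

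Itpr3, the remaining measured IP3 receptor, read 3.88, 4.04, 3.88 and 3.73 in sh14, 3.98, 3.77, 3.66 and 3.83 in sh133, and 4.09, 3.83, 3.76 and 3.42 in scr. The 3 lines overlapped, and the hairpin lines differed from scr by 0.29 (95% interval -0.06 to 0.63; limma adjusted p = 0.444). The difference of the 22 h array from the 1 h array was -0.15 in sh14 and -0.15 in sh133, against -0.67 in scr. With 1 array at each point these differences have no spread of their own.

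Stim1 and Orai1 are the sensor and the pore of store-operated calcium entry. The brighter Stim1 probe set read 5.63, 5.48, 5.49 and 5.91 in sh14 and 5.59, 5.68, 5.76 and 5.68 in sh133, against 5.27, 5.15, 5.48 and 5.64 in scr. Scr was the lowest line at 1, 6 and 22 h and level with sh14 at 12 h, but the fitted difference of the hairpin lines was 0.05 (95% interval -0.26 to 0.36; limma adjusted p = 0.924). The second Stim1 probe set read lower in sh14 than in scr at each time, with 4.74, 4.26, 4.48 and 4.36 in sh14 against 4.96, 4.61, 4.87 and 4.44 in scr, so the pair of probe sets did not order the lines alike.

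Orai1 read 3.20, 3.01, 3.34 and 2.89 in sh14, 3.43, 3.56, 3.26 and 3.25 in sh133, and 3.04, 3.28, 3.65 and 3.04 in scr. The ranges of the 3 lines overlapped, and the difference of the hairpin lines from scr was 0.14 (95% interval -0.28 to 0.57; limma adjusted p = 0.807).

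**Figure D2:**
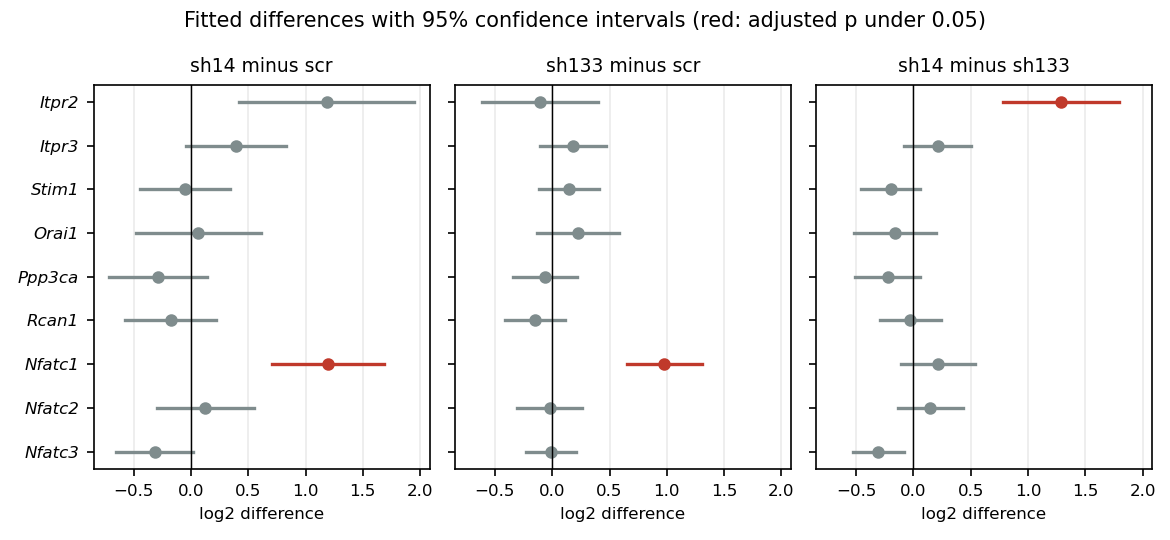
Fitted log2 difference (horizontal axes) with its 95% confidence interval for each of the 9 genes (rows), in panels for sh14 minus scr, sh133 minus scr and sh14 minus sh133, with called genes in red. Nfatc1 is red in both comparisons with scr, at 1.19 and 0.98, and Itpr2 in that of the hairpin lines, at 1.29.

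Ppp3ca encodes the alpha catalytic subunit of calcineurin. Its brightest probe set read 5.68, 5.82, 5.62 and 5.51 in sh14, against 6.19, 5.87, 5.90 and 5.84 in sh133 and 6.38, 6.20, 5.85 and 5.90 in scr. All 4 sh14 arrays were below all arrays of either other line, at a mean of 5.66 ± 0.13 in sh14, 5.95 ± 0.16 in sh133 and 6.08 ± 0.25 in scr (SD, n = 4 each). With the date term the sh14 difference from scr was -0.29 (95% interval -0.72 to 0.14; limma adjusted p = 0.511) and did not pass, and without that term it was -0.42 and passed (adjusted p = 0.00732), as did the differences of the hairpin lines from scr (-0.28, adjusted p = 0.0414) and of sh14 from sh133 (-0.29, adjusted p = 0.0431). The next brightest and the dimmest Ppp3ca probe sets differed between sh14 and scr by 0.13 and -0.11, with adjusted p-values of 0.808 and 0.814.

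Among the partners of calcineurin, its regulatory subunit Ppp3r1 was lower in sh14 than in sh133 by 0.50 on the log2 scale (limma adjusted p = 0.0139). Fkbp1a, the protein through which the drug tacrolimus inhibits calcineurin, was lower by 0.49 in the same comparison (adjusted p = 0.0468).

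Rcan1 encodes a calcineurin-binding protein, and in other cell types one of its transcripts starts at an internal promoter that calcineurin and NFAT drive. Its brighter probe set read 4.48, 4.60, 4.64 and 4.51 in sh14 and 4.39, 4.76, 4.64 and 4.55 in sh133, against 4.37, 4.91, 4.91 and 4.77 in scr. At 6, 12 and 22 h scr was the highest line, and at 1 h the lines were within 0.11 of each other. The hairpin lines differed from scr by -0.17 (95% interval -0.48 to 0.15; limma adjusted p = 0.668), which did not pass. The second probe set had a mean signal of 1.24, below the filter.

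Both Rcan1 promoters are shown because the gene is used elsewhere as a readout of calcineurin activity. Each is the 250 bases before a transcript start on the minus strand of mouse chromosome 16, from RefSeq (GRCm38.p6), written 5′ to 3′, with capitals on GGAAA or its reverse complement TTTCC, the core that NFAT proteins bind.
Rcan1 upstream promoter, chr16:92466170-92466419: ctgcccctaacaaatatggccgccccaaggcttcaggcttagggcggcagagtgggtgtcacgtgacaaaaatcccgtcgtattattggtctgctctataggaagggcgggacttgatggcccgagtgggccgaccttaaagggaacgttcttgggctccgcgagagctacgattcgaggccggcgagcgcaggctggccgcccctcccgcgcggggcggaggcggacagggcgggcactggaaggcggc
Rcan1 internal promoter, chr16:92400079-92400328: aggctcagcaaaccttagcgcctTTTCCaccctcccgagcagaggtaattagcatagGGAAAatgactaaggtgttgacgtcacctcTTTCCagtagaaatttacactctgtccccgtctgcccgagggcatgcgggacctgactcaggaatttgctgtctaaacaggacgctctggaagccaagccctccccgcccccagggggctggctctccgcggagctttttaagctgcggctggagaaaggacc
The internal promoter held 3 such matches and the upstream one 0. Of the 32851 mouse promoters in the same table, 55.6% held at least 1 match and 21.4% at least 2. Of the 10 promoters counted for 7 of the genes, 4 held at least 1. Nfatc1 and Ppp3ca are not among the 7. A match is only those letters, and the erythroid GATA motif AGATAA, searched on both strands, was in 0 of the 10 and in 9.99% of all promoters. Which Rcan1 transcripts the probe sets read was not examined here.

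**Figure D3:**
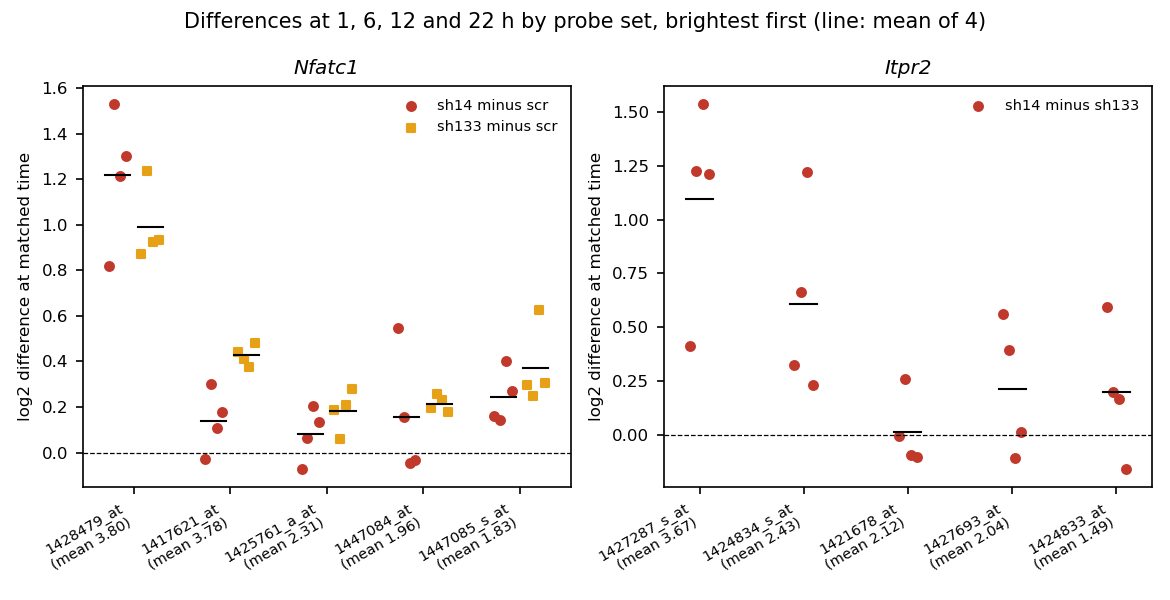
Log2 differences at the 4 matched times (vertical axes, 1 point a time, with a bar at their mean) for each probe set past the filter of Nfatc1 (sh14 minus scr and sh133 minus scr) and Itpr2 (sh14 minus sh133), from brightest to dimmest. The brightest Nfatc1 probe set lies between 0.82 and 1.53, above every point of the other 4, and the brightest Itpr2 probe set between 0.41 and 1.54.

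Nfatc1 is the NFAT factor that amplifies its own transcription in lymphocytes and osteoclasts. Its brightest probe set read 3.96, 4.46, 4.54 and 4.17 in sh14 and 4.01, 4.17, 4.25 and 3.80 in sh133, against 3.14, 2.93, 3.32 and 2.87 in scr. All 8 hairpin arrays were above all 4 scr arrays, and sh14 and sh133 overlapped. The means were 4.28 ± 0.27 in sh14, 4.06 ± 0.20 in sh133 and 3.07 ± 0.20 in scr (SD, n = 4 each). The hairpin lines were higher than scr by 1.09 ± 0.17 on the log2 scale, a fold of 2.12 (SE; limma adjusted p = 0.0130), sh14 by 1.19 ± 0.22 (adjusted p = 0.0195) and sh133 by 0.98 ± 0.15 (adjusted p = 0.0048). Between sh14 and sh133 the difference was 0.21 (95% interval -0.11 to 0.54; adjusted p = 0.392).

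At matched times the Nfatc1 differences from scr were 0.82, 1.53, 1.21 and 1.30 in sh14 and 0.87, 1.23, 0.92 and 0.93 in sh133, so it was higher in 8 of 8. The arrays of sh133 and scr at 1 and 22 h share a title date, and the fit within that set gave 0.90 (limma adjusted p = 0.0207). Only the 1 and 22 h differences bear on that fit, with the same limit on its spread as for Itpr2. The call for the hairpin lines together was lost without the sh14 array at 12 h (adjusted p = 0.0526) or the sh133 array at 1 h (0.133), 12 h (0.0562) or 22 h (0.0641). The difference was 1.00 to 1.25 over all arrays left out in turn. The sh14 call was lost without the sh14 array at 6 h (0.0883) or 12 h (0.0913) or the sh133 array at 1 h (0.111), 6 h (0.0962) or 12 h (0.129), and the sh133 call without its own array at 1 h (0.0737) or 22 h (0.0512), all as adjusted p. With log2 hours in place of the separate times the sh14 difference was 0.92 and missed the threshold (adjusted p = 0.0553).

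The 4 other Nfatc1 probe sets moved less. The brightest and the next brightest had means of 3.80 and 3.78 over the 12 arrays. In scr the next brightest was the brighter of the pair, at 3.59 against 3.07. The choice of the probe set that stands for Nfatc1 thus rested on the hairpin arrays, and is not independent of the tested difference. For the next brightest, the hairpin lines differed from scr by 0.38 (limma adjusted p = 0.228). The next brightest was higher in sh133 than in scr by 0.49 ± 0.11 (SE; limma adjusted p = 0.0382 over all probe sets tested, of which 3.59% were called) and differed between sh14 and scr by 0.27 (adjusted p = 0.499). For the 3 dimmer ones the differences of the hairpin lines from scr were 0.25, 0.07 and 0.22, and none passed. Averaged over its 5 probe sets, Nfatc1 differed by 0.40 between the hairpin lines and scr, which missed the threshold (adjusted p = 0.0695), and by 0.37 between sh14 and scr (adjusted p = 0.157), whereas sh133 was higher than scr by 0.44 (adjusted p = 0.0158).

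Of the 20 measured genes nearest to Nfatc1 on chromosome 18, 0 were called between the hairpin lines and scr, where 2.18% of all genes were called. Their median difference was -0.05, with a range of -0.57 to 0.32. In sh14 against scr, 1 of them was lower, Slc14a1 (-1.06, limma adjusted p = 0.0253), and in sh133 against scr 0 were called. Of all genes, 1.56% were lower in sh14 than in scr, and 4.91% were called in sh133 against scr. The part of the chromosome in the Nfatc1 result was not tested. The log2 of the summed signal of the megakaryocyte markers, over the 4 measured of 6 listed, was also higher without overlap, at 7.60 to 8.06 in sh14 and 6.91 to 8.18 in sh133, against 5.99 to 6.84 in scr. A different gene was called in each line, with the integrin subunit Itga2b higher than scr in sh14 (log2 difference 1.85, adjusted p = 0.0243 in limma) and the platelet factor Pf4 higher than scr in sh133 (2.21, adjusted p = 0.0330), and 0 of the 4 were called for the hairpin lines together. In sh14 against scr, Pf4 and the integrin subunit Itgb3 had fitted differences of -0.12 and -0.26, and the median of the 4 was 0.08. The sums do not have the date term taken out. The lymphoid markers Cd3e and Cd79a averaged 1.75 and 1.51, and Cd3g and Il7r, at 0.83 and 0.95, were below the filter. In RNA from a whole culture, fewer cells of a type and less RNA per cell cannot be told apart, and the part of these markers in the Nfatc1 result was not tested.

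Nfatc2, the NFAT factor best known from T cells, read 3.31, 3.33, 3.21 and 2.97 in sh14, 3.11, 3.03, 3.13 and 3.11 in sh133, and 3.10, 3.15, 3.14 and 3.26 in scr. The 3 lines overlapped, and the hairpin lines differed from scr by 0.05 (95% interval -0.28 to 0.38; limma adjusted p = 0.926). Of its 6 probe sets 3 were below the filter.

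Nfatc3, a family member found in many tissues, read 6.29, 6.31, 6.38 and 6.26 in sh14, against 6.50, 6.72, 6.57 and 6.44 in sh133 and 6.47, 6.51, 6.55 and 6.51 in scr on its brighter probe set. The 4 sh14 arrays were below all arrays of the other lines. The sh14 difference was -0.32 from scr (95% interval -0.65 to 0.02; limma adjusted p = 0.325) and -0.31 from sh133 (interval -0.53 to -0.08; adjusted p = 0.0681), and neither passed. The difference from sh133 passed under 3 alternatives: with the date term kept, under a filter at the 60th percentile (-0.31, adjusted p = 0.0462) and with log2 hours in place of the separate times (-0.33, adjusted p = 0.0327), and without the date term (-0.25, adjusted p = 0.0334). On the second probe set sh14 was also below scr at each matched time, by 0.16 to 0.58, yet the fit with the date term put it above scr, at 0.29 (adjusted p = 0.589). The sign of the sh14 difference in Nfatc3 thus rests on the date term for that probe set.

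Over time, 0 of the 9 genes were called between 22 and 1 h (18.1% of all genes were called, 8.74% higher and 9.34% lower), 12 and 1 h (7.06%, with 4.32% higher and 2.75% lower) or 6 and 1 h (4.86%, with 2.93% higher and 1.93% lower) by limma. At an unadjusted p under 0.05 the counts were 4, 2 and 1, and the share of all genes under it was not counted here. For 22 h that share is at least the 18.1% called after adjustment. At 22 h against 1 h the 4 were Itpr2 at -0.58, Ppp3ca at -0.34, Itpr3 at -0.32 and Stim1 at 0.25 on the log2 scale, with adjusted p-values of 0.0724, 0.0623, 0.0787 and 0.126. All 3 Ppp3ca probe sets had differences between -0.28 and -0.34, and the Stim1 probe sets differed in sign, 0.25 and -0.36.

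The log2 difference in Itpr2 between 22 and 1 h was 0.07 in sh14, -0.73 in sh133 and -1.07 in scr. Without the sh14 array at 1 h the Itpr2 differences passed at 22 h (-0.87, limma adjusted p = 0.00446), 12 h (-0.67, 0.0461) and 6 h (-0.78, 0.0349), as did that at 22 h without the sh14 array at 22 h (-0.75, 0.0417), and the Ppp3ca difference at 22 h passed without the sh14 array at 1 h (-0.44, 0.0275). Rcan1 had 0.34 at 6 h and 0.32 at 12 h against 1 h (limma adjusted p = 0.134 and 0.145), and Nfatc1 0.33 at 12 h (adjusted p = 0.222). A slope over log2 hours that differed between the hairpin lines and scr was called for 0 of the 9 genes (0.0316% of all genes, 0.0237% upward and 0.00789% downward). The limma adjusted p was 0.211 for Itpr3 and 0.226 for Itpr2, at unadjusted values of 0.016 and 0.020. Without the sh133 array at 1 or 22 h the Itpr2 slope difference, 0.28 for each unit of log2 hours, passed (adjusted p = 0.0354). Both omissions gave the same slope fit, because the date term then takes up the other of these arrays, so they are 1 check. Over the same interval all 6 tested erythroid markers were higher at 22 h than at 1 h, and Kit, the stem cell factor receptor, was lower by 1.33, so the labelled times also differ in these markers.

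Across the 12 arrays the genes whose signal ran most like that of Nfatc1 were Tmem181a (Pearson r = 0.97), Rassf5 (0.96) and Tdrd7 (0.95), and those most like Itpr2 were Glb1 (0.96), Khk (0.96) and Ndufb11 (0.96). The arrays share lines, times and title dates, and the genes were picked by that likeness on the same arrays, so their differences are given as descriptions, with no test. Rassf5, a Ras effector of lymphocytes, was higher in the hairpin lines than in scr by 1.32 ± 0.15 and Tdrd7, a tudor domain protein, by 1.30 ± 0.17 (SE), and Tmem181a had 0.48. Glb1, the lysosomal beta-galactosidase, Khk, ketohexokinase, and Ndufb11, a subunit of mitochondrial complex I, were higher in sh14 than in sh133 by 1.06, 0.69 and 0.49.

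The wider pathway was described through 6 lists with 135 genes, of which 95 were tested under the symbol listed. Irag2, on the list of store and channel partners, is named Lrmp in the annotation used and is outside all counts of these lists. Between the hairpin lines and scr 5 were higher and 3 lower, 8.42% of those tested beside the 2.18% of all genes. In the list of IP3 production and removal 2 of 14 were higher, Plcg2 and Inpp1, an inositol phosphatase (0.80, limma adjusted p = 0.0444). Among calcium pumps and buffers 1 of 16 was higher, the reticulum pump Atp2a3 (1.09, adjusted p = 0.0499), and 1 was lower, the plasma membrane pump Atp2b1 (-0.89, adjusted p = 0.0144).

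Of the 20 tested store and channel partners 0 were called in that comparison. Of the 17 NFAT relatives and kinases, Csnk1e, one of the casein kinases 1 that phosphorylate NFAT factors, was higher by 1.32 ± 0.22 (SE; limma adjusted p = 0.0146), and Dyrk2, a kinase that also phosphorylates them, was lower by 1.38 ± 0.20 (adjusted p = 0.00794). Of the 20 measured genes nearest to Dyrk2 on chromosome 10, 1 was higher and 3 were lower, with a median of -0.23. Of those nearest to Csnk1e on chromosome 15, 0 were called. Over all genes tested, 1.14% were higher and 1.04% lower. The part of the chromosome in the Dyrk2 and Csnk1e results was not tested. Camk1d, a calmodulin-dependent kinase, was the 1 higher gene of 14 in the calmodulin and calcineurin list (0.59, adjusted p = 0.0397). Of 14 tested genes reported as NFAT targets in other cell types, 0 were higher and 1 was lower, the cyclin-dependent kinase Cdk4 (-0.70, adjusted p = 0.0371).

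Between sh14 and sh133, 3 of the 95 were higher and 8 lower, 11.6% of those tested beside 14.6% of all genes. Outside that count, Irag2 (Lrmp) was higher in sh14 by 0.67 (limma adjusted p = 0.0385), and it is one of the called neighbours of Itpr2. The largest differences were in Rgs1, a regulator of G-protein signalling, higher by 1.28 (limma adjusted p = 0.0043), and in Mef2c, a transcription factor that calcium signals activate, lower by 1.12 (adjusted p = 0.0062). Csnk1e (0.99) and Itpkb (0.51), a kinase that consumes IP3, were also higher in sh14. Tmco1, a calcium leak channel of the reticulum, was lower by 0.55, and Itprip, which binds IP3 receptors, by 0.45. The calcium pump Atp2b4, the kinase Camkk2, which acts on other calmodulin-dependent kinases, and the transcription factor Mef2a were lower by 0.52, 0.51 and 0.46.

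Between 22 and 1 h, 6 were higher and 15 lower, 22.1% of those tested beside 18.1% of all genes. The calcium-gated potassium channel Kcnn4, known from red cells as the Gardos channel, was higher by 1.69 ± 0.36, and Atp2b4, the main calcium pump of the red cell membrane, by 1.11 ± 0.09 (SE; limma adjusted p = 0.0095 and 5.6e-05). Plcb1, another phospholipase C, was higher by 0.72. Camk1d was lower by 0.78 and Dyrk2 by 0.74, Fkbp1a by 0.70 and the mitochondrial calcium channel Mcu by 0.61. Of the reported NFAT targets, 0 of 14 were higher and 2 lower, the phosphatase Dusp2 by 0.71 and the transcription factor Myc by 0.55. Kcnn4 and Atp2b4 were higher in the same interval as the erythroid markers.

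**Figure D4:**
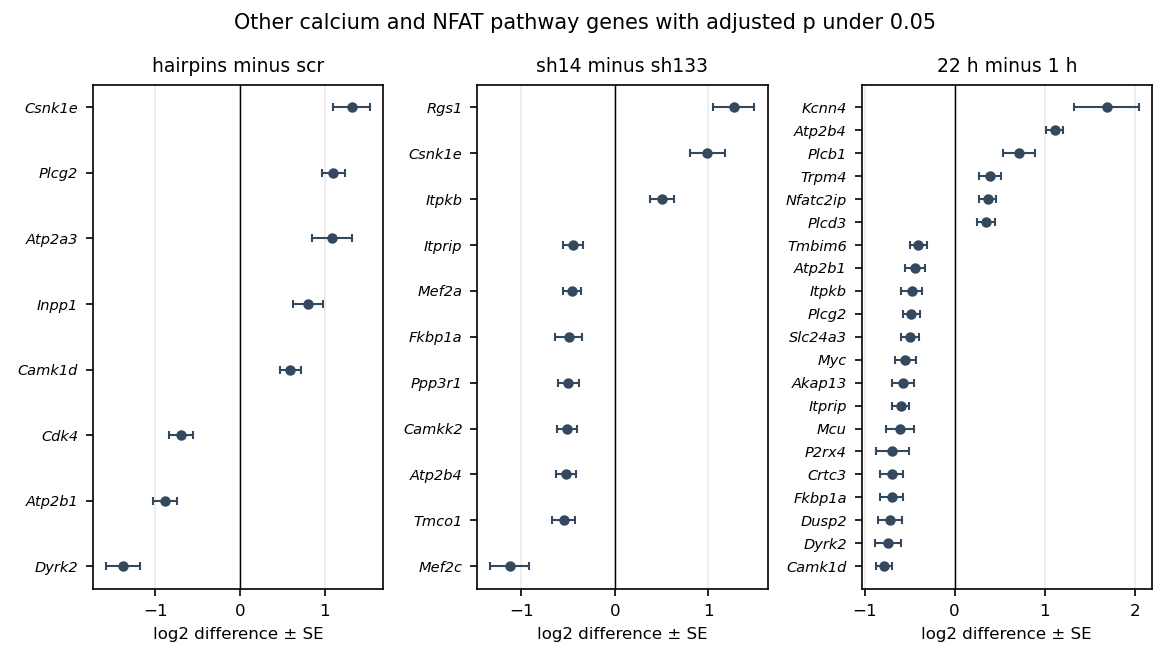
Log2 difference with its SE (horizontal axes) of each pathway gene called in limma under its listed symbol, in panels for the hairpin lines minus scr, sh14 minus sh133, and 22 h minus 1 h. In the first panel 5 genes lie right of 0, up to Csnk1e at 1.32, and 3 left of it, down to Dyrk2 at -1.38, and in the third 6 lie right and 15 left of it.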

How the data were processed

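Total RNA was whole-transcriptome amplified, tagged with biotin and measured on Affymetrix mouse expression arrays, as the labels describe. The deposited values are log2 signals, and the submitters' processing notes name RMA, whose version and settings are not given in the sources used here. Of 45101 probe sets, 34958 name 1 gene, 932 several and 9211 none; 34754 matched RefSeq (GRCm38.p6). The brightest probe set by mean stood for a gene, and probe sets under the 40th percentile of means (log2 1.45) were dropped, so that 12673 genes were tested.

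A model of line, time and title date set (5 residual degrees of freedom) was fitted to all genes in limma 3.58.1 (R 4.3.3), with Benjamini-Hochberg adjustment over them and a threshold of 0.05, and a second model with a hairpin slope over log2 hours had 4. A fitted difference has the date term taken out, so it need not equal the difference of group means. Precision is limited by how few arrays there are. The genes and lists were chosen with earlier results of these data known. Of each pathway list, up to 3 called genes in each direction with the largest differences are named. Alternatives were no date term, fits within a date set, other filters, the mean over probe sets, an intensity trend, log2 hours, and each array left out in turn.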

Additional observations from a re-analysis of the deposited data

Results flagged for a closer look

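The difference of sh14 from scr and that of sh133 from scr were unlike in Itpr2, by 1.29 on the log2 scale, which is the tested difference between the hairpin lines. The 2 comparisons share the scr arrays, and the date set holds all sh14 arrays and only some of those of sh133.

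In Nfatc2 the sh133 array at 6 h, at 3.03, lay below the other 3 arrays of its line by a gap that passes Dixon's 95% critical value for 4 arrays. It was the 1 such array among 27 groups of 4, and chance gives about 1 in 20 groups of replicates. The 4 arrays of a line are 4 labelled times, not replicates, so the rule cannot tell an outlying array from a change with time. The gap was small, as the other 3 arrays read 3.11, 3.13 and 3.11 at 1, 12 and 22 h.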

How the results depend on the processing

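Over the alternatives no called gene of the 9 changed sign, 16 values lost the threshold, 18 gained it and 77 of 1186 uncalled values changed sign. Without the date term, the counts over all genes were 2049 for the hairpin lines against scr, 3003 for sh14 against scr, 1592 for sh133 against scr, 3132 for sh14 against sh133 and 946 for 6 h, and of the 9 genes 2, 3 and 3 were called for the hairpin lines against scr, sh14 against scr and sh14 against sh133. With the mean over probe sets, 0 of the 9 were called for the hairpin lines and 0 for sh14 against scr, 1 for 22 h (Ppp3ca, -0.30, limma adjusted p = 0.0277), and 0 slopes over all genes. With log2 hours in place of the separate times, 590 genes were called for sh14 against scr, where Itpr2 passed (1.15, limma adjusted p = 0.0490) and Nfatc1 did not, and 2 of the 9 for sh14 against sh133. Within the second date set 254 were called for sh133 against scr. The 60th percentile filter gave 2 of the 9 for sh14 against sh133 and 1 slope, and an intensity trend gave 130 slopes. With each array left out in turn, the counts over all genes ran from 59 to 384 for the hairpin lines, 87 to 555 for sh14 and 135 to 734 for sh133 against scr, 390 to 2206 for sh14 against sh133, 1146 to 2273 for 22 h, 221 to 1110 for 12 h, 97 to 730 for 6 h and 0 to 361 for slopes. Over the 9 genes they ran from 0 to 1, 0 to 2, 0 to 1, 0 to 1, 0 to 2, 0 to 1, 0 to 1 and 0 to 1 in that order. Nfatc1 passed in 13 of 18 settings for the hairpin lines, 11 of 18 for sh14 and 17 of 19 for sh133, and Itpr2 in 17 of 19 for sh14 against sh133. The cause was not tested. No paired analysis was possible because the replicate numbers follow accession order and mark no shared origin. Arrays of different lines are matched by labelled time through the time term.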
